A study of Mus musculus with 6 samples.

Results

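Polycomb group proteins work in 2 large complexes that keep genes silent through chromatin. The 10 genes described here encode core subunits of both, and were chosen by name: Ezh1, Ezh2, Eed and Suz12 of Polycomb repressive complex 2 (PRC2), and Bmi1, Ring1, Rnf2, Cbx2, Cbx7 and Cbx8 of Polycomb repressive complex 1 (PRC1). Each gene is read by the probe set that the platform annotation pairs with that gene alone, and where there are several, by the one with the highest mean over all 6 arrays. All 10 were measured, out of 19937 genes with such a probe set.

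Expression was measured on 1-colour Affymetrix whole-transcript arrays in 6 cultures of neural stem cells and progenitors from mice of the 129SV strain, aged 8 weeks. In 3 cultures both Sirt1 alleles were floxed and no Cre was present (Sirt1lox/lox, control). The other 3 carried the same floxed alleles and NestinCre (NestinCre;Sirt1lox/lox, Sirt1 inactive), in which Cre is driven by the Nestin promoter, active in neural stem and progenitor cells, and the labels describe them as lacking active SIRT1. Neurospheres of all 6, grown with the growth factors EGF and bFGF, were dissociated, seeded on poly-D-lysine and harvested at passage 2 while dividing. Cre is present only in the Sirt1 inactive cultures, so its own effect and that of losing SIRT1 cannot be told apart. The labels do not state how many mice stand behind a culture. The titles call the samples of a genotype biological replicates. SIRT1 removes acetyl groups from proteins at the expense of NAD, and the labels set cultures with the active enzyme against cultures without it; the comparison is read here for transcripts of the Polycomb machinery.

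PRC2 places methyl groups on lysine of histone H3, with EZH1 or EZH2 as the enzyme, SUZ12 as the scaffold and EED as the subunit that binds the finished mark. PRC1 attaches ubiquitin to histone H2A through the RING proteins RING1 and RNF2 (RING1B), helped by a PCGF protein such as BMI1, and its CBX subunits read the PRC2 mark through a chromodomain. In neural stem cells Bmi1 is known for keeping the Cdkn2a locus, which encodes the cell cycle inhibitors p16 and p19, silent, so that the cells can go on dividing.

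The arrays had medians of 7.36 to 7.39 on the log2 RMA scale and lower quartiles of 5.78 to 5.83, and no member value lay below the lower quartile of its array. Markers of the labelled cells were bright on all 6 arrays: the neural progenitor filament gene Nes read 11.55 to 11.70, the stem cell transcription factor Sox2 11.60 to 11.78 and the radial glia gene Fabp7 13.19 to 13.46. The targeted gene Sirt1 was 8.73, 8.78 and 8.55 in control and 8.26, 8.33 and 8.25 in the Sirt1 inactive cultures. Its groups did not overlap, and its difference of -0.41 (SE 0.076) did not pass over all probe sets (limma, adjusted p = 0.959). Control replicate 3 stood apart most: over all probe sets its median distance from the mean of the remaining arrays was 0.117, against 0.059 to 0.089 for the other 5. Its 8 astrocyte markers had a mean of 9.96, against 10.74 to 10.90 on the other arrays, so member values that rest on it are given with and without it.

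None of the 10 members passed the test in either direction (limma, adjusted p = 0.959 to 0.974), and 0 of 22961 probe sets, or 0%, passed in the whole table. At an unadjusted p under 0.05 there was 1 member, Cbx7, which was lower without active SIRT1, against 3.61% of all tested probe sets (830) 2.63% lower (604) and 0.984% higher (226). Of those 830, 72.8% were lower. With array medians subtracted, 371 probe sets were lower at that p (1.62% of all) and 382 higher, so 49.3% of that set were lower. The groups failed to overlap for 1 of 10 members, against 9.33% of all probe sets, with 6.71% lower, so this count is close to the background. The share at an unadjusted p under 0.05 was 10% of members, against 3.61%, and rests on 1 gene. Differences are Sirt1 inactive minus control, and 6 members had a difference above 0 and 4 below, against 60.1% of all tested probe sets below 0. The median over the 10 members was 0.042, against -0.022 over all tested probe sets. With array medians subtracted, 4 members were still below 0, but 48.9% of all tested probe sets were, and the medians were 0.066 and 0.002. The sign of the members' median turned without control replicate 1 (-0.005).

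For the 9 members other than Cbx7 the differences ran from -0.070 to 0.092, and the 95% intervals reached no lower than -0.336 and no higher than 0.334, which is 0.792 to 1.26 times the control level on the RMA scale. A p that misses the threshold does not show that the levels are equal, and effects inside these intervals are not excluded. The intervals do not mark the smallest effect that 3 arrays per genotype can detect. The Sirt1 difference of -0.405 lay beyond them and did not pass either. In these bulk cultures a lower value can come from fewer cells of a type or from less RNA per cell, and these cannot be told apart.

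**Figure D1:**
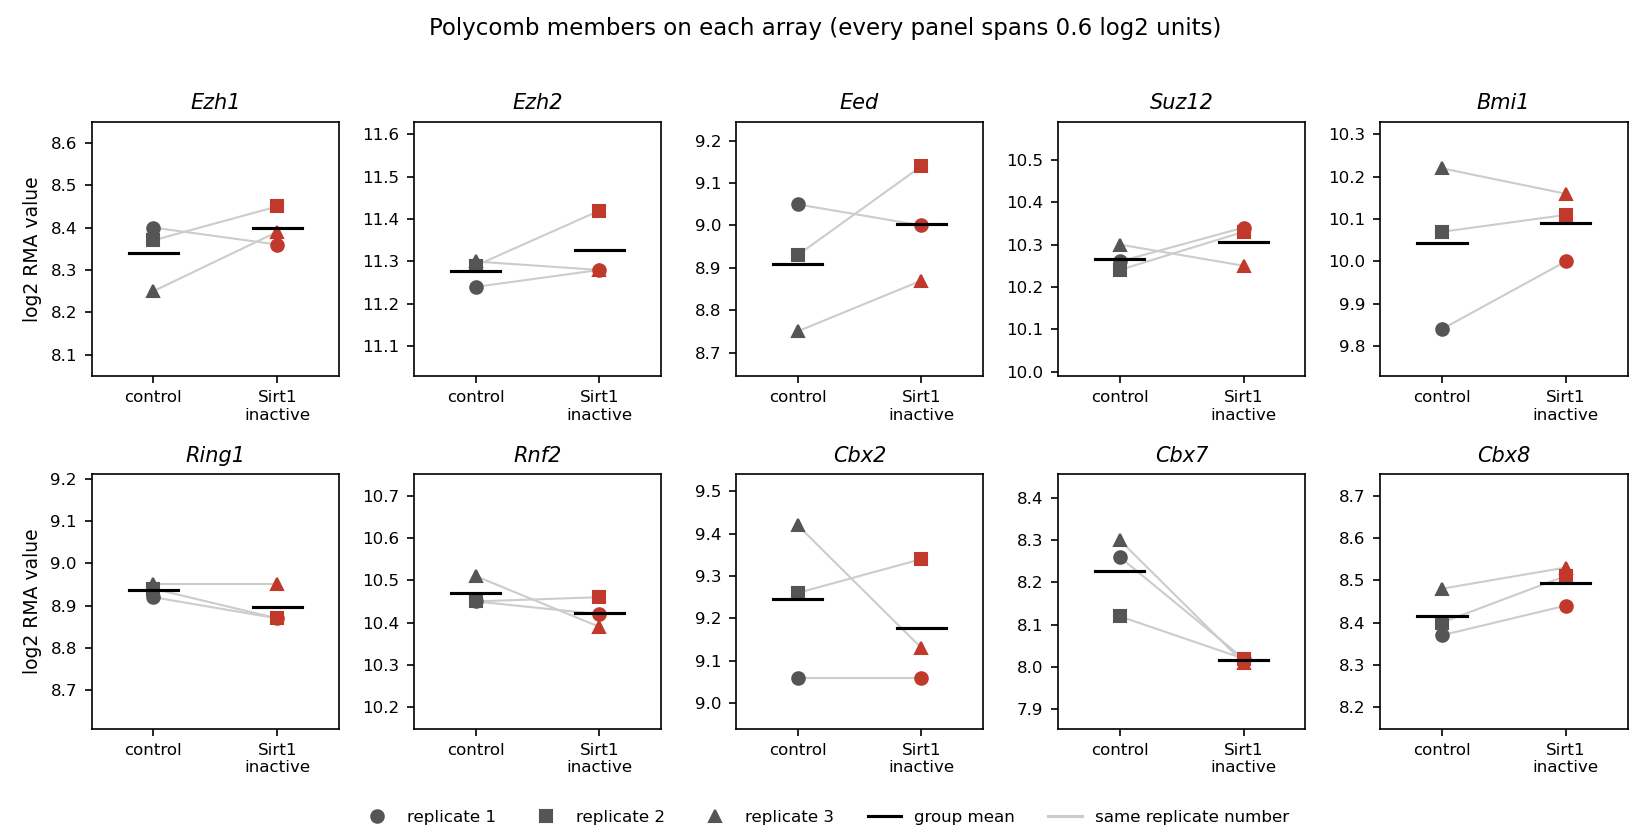
Log2 RMA value (y axis) of each of the 10 Polycomb genes in the 3 control and 3 Sirt1 inactive cultures, with 1 symbol per array, shapes for the replicate number, bars for group means and grey lines joining equal replicate numbers; all panels span the same log2 distance. The groups overlap in every panel except Cbx7, whose Sirt1 inactive arrays read 8.01 to 8.02 and control arrays 8.12 to 8.30.

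Of the PRC2 enzymes, Ezh2, the methyltransferase of dividing cells, read 11.24, 11.29 and 11.30 in control and 11.28, 11.42 and 11.28 without active SIRT1. Only Sirt1 inactive replicate 2 stood above the control range. The means were 11.28 ± 0.029 and 11.33 ± 0.082 (SD, n = 3 each), a difference of 0.051 (SE 0.064, 95% interval -0.101 to 0.202) that was 0.004 without that array. Ezh1, the related enzyme that persists in cells that no longer divide, read 8.40, 8.37 and 8.25 in control and 8.36, 8.45 and 8.39 without active SIRT1. Its lowest value was control replicate 3, and its difference of 0.057 (SE 0.066) became 0.013 without that array. Neither enzyme differed beyond the spread between replicates.

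Suz12, the scaffold that holds PRC2 together, varied least among the PRC2 genes, over a range of 0.10 across all 6 arrays against a median range of 0.27 for all tested probe sets. It read 10.26, 10.24 and 10.30 in control and 10.34, 10.33 and 10.25 without active SIRT1, where the first and second replicates stood above every control and the third did not. The difference was 0.041 (SE 0.059, 95% interval -0.097 to 0.179). Eed, whose protein binds the methyl mark and stimulates the enzyme, varied most, over a range of 0.39. It read 9.05, 8.93 and 8.75 in control and 9.0, 9.14 and 8.87 without active SIRT1, where replicate 2 stood above every control, control replicate 3 lay below every other array, and the groups overlapped. Its difference of 0.092 (SE 0.103) was 0.011 without control replicate 3, and leaving out Sirt1 inactive replicate 2 gave 0.024. A second, dimmer probe set of Eed, between 5.59 and 5.89 on the arrays and thus near their lower quartile, differed by -0.077 (SE 0.088), so both probe sets had intervals that hold 0 and opposite signs. With the brighter Eed probe set, all 4 PRC2 genes lay above 0, with a median of 0.054. Of all tested probe sets 60.1% were below 0, and 48.9% with array medians subtracted. The mean of Eed's probe sets differed by 0.008. The 4 genes stayed above 0 whichever array was left out, with medians of 0.026 to 0.077, but these fits share arrays. Sirt1 inactive replicate 2 had the highest Ezh1, Ezh2 and Eed values of any array. The proliferation genes described below also had their highest mean on that array, 10.79 against 10.67 to 10.75, and their part in these values was not tested.

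**Figure D2:**
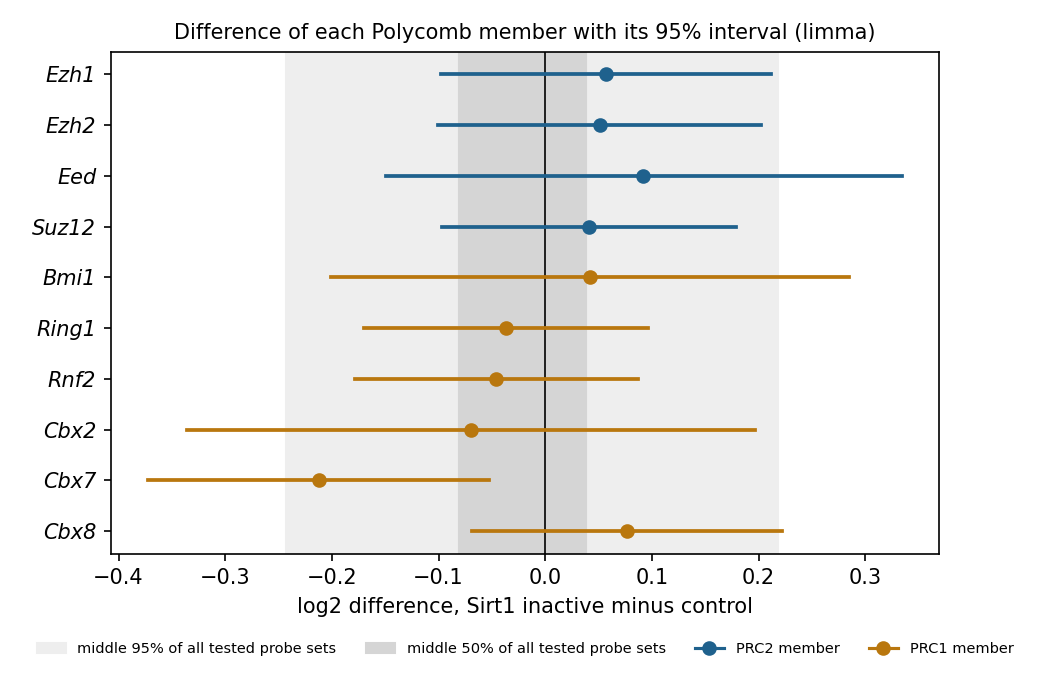
Log2 difference, Sirt1 inactive minus control (x axis), of each Polycomb gene with its 95% interval from limma; shaded bands hold the middle 50% and 95% of all tested probe sets (-0.081 to 0.038 and -0.243 to 0.218). All intervals but that of Cbx7 (-0.372 to -0.053) include 0, and all 10 differences lie within the wider band.

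Among the PRC1 genes, Bmi1, the PCGF subunit best known for stem cell renewal, read 9.84, 10.07 and 10.22 in control and 10, 10.11 and 10.16 without active SIRT1. The Sirt1 inactive values fell inside the control range. The means were 10.04 ± 0.19 and 10.09 ± 0.079 (SD, n = 3 each), and the difference of 0.042 (SE 0.103) was -0.059 without control replicate 1 and 0.130 without control replicate 3. The catalytic RING subunits varied little. Ring1 read 8.92, 8.94 and 8.95 in control and 8.87, 8.87 and 8.95 without active SIRT1, a difference of -0.037 (SE 0.057, 95% interval -0.170 to 0.096). Rnf2, the RING subunit that does most of the H2A ubiquitination in stem cells, read 10.45, 10.45 and 10.51 in control and 10.42, 10.46 and 10.39 without active SIRT1, a difference of -0.046 (SE 0.056, 95% interval -0.178 to 0.087). Both pairs of groups overlapped, and the 6 arrays spanned 0.08 for Ring1 and 0.12 for Rnf2.

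Cbx7, a chromodomain subunit known from pluripotent stem cells and as a repressor of the Cdkn2a locus, had the smallest p of the 10. It read 8.26, 8.12 and 8.30 in control and 8.02, 8.02 and 8.01 without active SIRT1. All Sirt1 inactive arrays were below all control arrays, and their values were almost the same. The means were 8.23 ± 0.099 and 8.02 ± 0.0047 (SD, n = 3 each). The difference was -0.21 (SE 0.068, 95% interval -0.37 to -0.053), or 0.863 times control. It was lower in 3 of 3 same-numbered pairs, by -0.24, -0.10 and -0.29, a count that follows from groups that do not overlap. Over all probe sets it did not pass (limma, adjusted p = 0.959; 0.656 with a replicate block, a fit in which 7.58% of probe sets had an unadjusted p under 0.05), its unadjusted limma p was 0.016, and 0.827% of tested probe sets had a smaller one. The exact two-sided permutation test of 3 against 3 arrays gave p = 0.1, the smallest it can give. Over 15 other ways of fitting the difference stayed between -0.268 and -0.152, with unadjusted p from 0.0063 to 0.052 and adjusted p from 0.586 to 1.

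None of the markers of other cell types passed, and the list means of the groups did not overlap for neuron, oligodendrocyte progenitor and microglia markers. No background share was taken for list means. By single gene, the groups did not overlap for 2 of 8 neuron, 4 of 7 oligodendrocyte progenitor and 4 of 8 microglia markers. The count was 1 of 8 astrocyte, 0 of 5 endothelial and 0 of 9 neural stem and progenitor cell markers. The share over all tested probe sets was 9.33%. All 8 neuron and neuroblast markers were below 0 (median -0.31). Their list means were 8.00 to 8.27 on the control arrays and 7.63 to 7.95 on the Sirt1 inactive arrays. Of 7 oligodendrocyte progenitor markers 4 were above 0 (median 0.285), with means of 9.41 to 9.53 and 9.68 to 9.89. Pdgfra (0.788), Gpr17 (0.751), C1ql1 (0.438) and Sox10 (0.285) were above 0, each with groups that did not overlap. Olig1 (-0.073), Olig2 (-0.154) and Cspg4 (-0.116) were below 0 with overlapping groups. Of 8 microglia markers 7 were below 0 (median -0.088), with means of 7.05 to 7.14 and 7.01 to 7.03. Of 8 astrocyte markers 7 were above 0 (median 0.208), but 4 were below 0 without control replicate 3 (median 0.010). Of 5 endothelial markers 1 was above 0 (median -0.078), and of 9 neural stem and progenitor cell markers 5 were (median 0.001). The neural stem and progenitor cell markers did not pass either. The part of these cells in the Cbx7 value was not tested. RMA values have no zero, so absence of a marker cannot be read from them. Control replicate 3 was also the array with the highest Cbx7 value, and without it the difference was -0.174.

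For the other CBX genes measured the groups overlapped. Cbx2, which compacts chromatin as part of PRC1, read 9.06, 9.26 and 9.42 in control and 9.06, 9.34 and 9.13 without active SIRT1. The control arrays alone spanned the whole range of the gene, and its difference of -0.070 (SE 0.113) was 0.016 without control replicate 3. Cbx8, a CBX subunit also known to repress the Cdkn2a locus, read 8.37, 8.40 and 8.48 in control and 8.44, 8.51 and 8.53 without active SIRT1. It was higher in 3 of 3 pairs, by 0.07, 0.11 and 0.05, but the groups overlapped and the difference of 0.077 (SE 0.062, 95% interval -0.069 to 0.222) did not pass. Cbx2 and Cbx8 are neighbours on mouse chromosome 11 in RefSeq's gene order (GRCm38.p6), while Cbx7 lies on chromosome 15. Whether the Cbx7 difference is unlike that of the other CBX genes was not tested.

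The promoters of the members share a composition that the choice by name did not use. RefSeq's promoter table (GRCm38.p6), with 250 bases before and 50 after each start site, held a window for 9 of the 10 genes, all but Cbx2. These windows had 17 to 41 CpG dinucleotides, with a median of 30, against a median of 7 over all 32841 windows, and all 9 lay above that median. From 68.6% (Eed) to 96.5% (Suz12) of all windows had fewer CpG than a member's window. The comparison was not made with genes expressed at like levels, so this composition is not shown to be particular to the members. Their G+C content was 54.7% to 74.0%, against a median of 52.7%. Ezh2 is a textbook target of the E2F factors, which drive genes of dividing cells, so the windows were searched on both strands for the E2F consensus written out as TTTCCCGC, TTTCGCGC, TTTGCCGC and TTTGGCGC. Ezh2 and Suz12 held 1 match each, so 2 of 9 windows did, against 2.27% of all windows. The search was prompted by Ezh2 itself. Each motif holds a CpG, and the member windows are richer in CpG than all windows. The shares therefore do not come from like windows, and an excess of matches was not tested. The match in Ezh2 begins at base 4 of the transcript and that in Suz12 at base -219. A match is a description of letters and does not show that a factor binds. The windows of these genes are printed with that of Cbx7, the member with the smallest p, from 250 bases before to 20 after the start site. They lie at chr6:47595011-47595280 on the minus strand (Ezh2), chr11:79992856-79993125 on the plus strand (Suz12) and chr15:79932627-79932896 on the minus strand (Cbx7). They are written 5′ to 3′ along the gene, with the E2F match in capitals; Cbx7 has none and is all in lower case.
Ezh2: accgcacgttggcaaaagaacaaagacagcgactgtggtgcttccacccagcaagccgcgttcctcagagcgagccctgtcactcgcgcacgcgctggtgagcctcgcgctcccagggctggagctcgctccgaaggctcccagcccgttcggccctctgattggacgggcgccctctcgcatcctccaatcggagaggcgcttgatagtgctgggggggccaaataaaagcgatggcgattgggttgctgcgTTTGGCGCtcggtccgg
Suz12: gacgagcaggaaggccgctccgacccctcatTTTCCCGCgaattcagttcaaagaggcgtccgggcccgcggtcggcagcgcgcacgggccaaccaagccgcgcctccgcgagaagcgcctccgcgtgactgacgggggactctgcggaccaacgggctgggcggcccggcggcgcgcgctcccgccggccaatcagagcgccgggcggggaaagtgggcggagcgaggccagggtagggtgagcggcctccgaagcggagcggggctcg
Cbx7: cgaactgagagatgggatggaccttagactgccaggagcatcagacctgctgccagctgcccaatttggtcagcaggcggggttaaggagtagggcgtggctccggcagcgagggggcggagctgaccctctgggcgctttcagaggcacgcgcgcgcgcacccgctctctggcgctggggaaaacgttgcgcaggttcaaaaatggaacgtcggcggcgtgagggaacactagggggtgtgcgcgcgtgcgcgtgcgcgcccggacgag

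Of these, Ezh2 and Suz12, with the match, differed by 0.051 and 0.041, and Cbx7, with 33 CpG dinucleotides and no match, by -0.21. Other members whose window holds no match lay on both sides of 0. They were Eed (0.092), Cbx8 (0.077), Ezh1 (0.057), Bmi1 (0.042), Ring1 (-0.037) and Rnf2 (-0.046). A link between a match and the difference was not tested.

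Partner subunits of both complexes were read from lists of known complex members, and none of their genes passed in either direction. Of 8 PRC2 accessory genes 5 lay above 0 and 3 below, with a median of 0.010 (-0.036 to 0.023 with 1 array left out). Epop, which links PRC2 to elongin, read 8.16, 8.13 and 8.23 in control and 8.04, 8.07 and 8.08 without active SIRT1. Its groups did not overlap (1 of the 8 genes, against 9.33% of all tested probe sets), and its difference of -0.108 (SE 0.057) did not pass. The others overlapped: the histone chaperones Rbbp4 and Rbbp7 differed by 0.003 and 0.056, the recruitment factors Jarid2 and Aebp2 by -0.080 and 0.016, and the Polycomb-like proteins Mtf2, Phf1 and Phf19 by 0.092, -0.026 and 0.037. Rbbp7 has another probe set, which differed by 0.132 (SE 0.076), also with overlapping groups. Of 20 other PRC1 genes 8 lay above 0 and 12 below, with a median of -0.020 (-0.035 to 0.009 with 1 array left out). The groups did not overlap for 2 of these 20, against 9.33% of all tested probe sets, so this count is close to the background. Phc1, a polyhomeotic subunit of canonical PRC1, read 9.87, 9.78 and 10.01 in control and 9.68, 9.65 and 9.78 without active SIRT1, a difference of -0.179 (SE 0.078). It was lower in 3 of 3 pairs, and the highest Sirt1 inactive value met the lowest control value. Rybp and Pcgf1, of the variant PRC1 complexes that lack a CBX protein, differed by 0.218 (SE 0.10) and 0.177 (SE 0.080), both with overlapping groups. A second probe set of Rybp differed by -0.059 (SE 0.090), so the direction of that gene depends on the probe set.

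No gene for an enzyme that opposes Polycomb passed. Of 8 deubiquitinase and demethylase genes 5 lay above 0, with a median of 0.003 (-0.038 to 0.034 with 1 array left out). Usp16, which takes ubiquitin off H2A, read 9.30, 9.52 and 9.34 in control and 9.49, 9.63 and 9.55 without active SIRT1, a difference of 0.173 (SE 0.080) that was higher in 3 of 3 pairs with overlapping groups. Mysm1, another H2A deubiquitinase, differed by 0.111, Bap1, the deubiquitinase of the PR-DUB complex, by -0.062, and its partners Asxl1, Asxl2 and Asxl3 by 0.005, 0.015 and -0.091. The H3 demethylases Kdm6a and Kdm6b differed by 0.001 and -0.132. Of 6 trithorax-type methyltransferase genes, whose products keep Polycomb targets active, 2 lay above 0 and 4 below, with a median of -0.029 (-0.078 to 0.013 with 1 array left out). Setd1b was at -0.135, Kmt2b at -0.078, Kmt2a at -0.030, Setd1a at -0.029, Kmt2d at 0.004 and Kmt2c at 0.067. Second probe sets of Kmt2d and Setd1b were at 0.108 (SE 0.112) and -0.132 (SE 0.081).

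**Figure D3:**
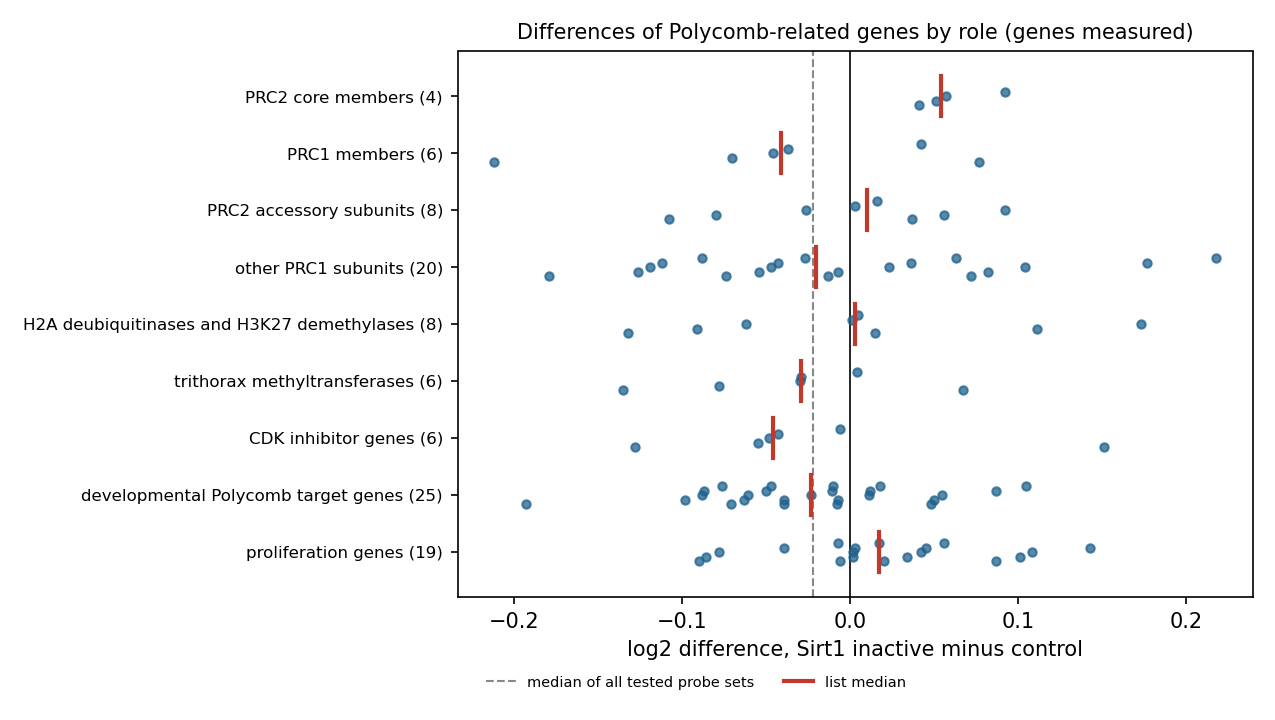
Log2 difference, Sirt1 inactive minus control (x axis), of each measured gene in 9 lists by role, with 1 point per gene, a red bar for the list median and a dashed line for the median of all tested probe sets (-0.022). List medians lie between -0.046 (CDK inhibitor genes) and 0.054 (PRC2 core members), with all 6 arrays, and points are shifted vertically only to keep them apart.

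No gene passed on the list of CDK inhibitor genes or on that of developmental Polycomb target genes. Cdkn2a read 8.72, 8.66 and 8.68 in control and 8.74, 8.56 and 8.75 without active SIRT1, a difference of -0.006 (SE 0.071, 95% interval -0.174 to 0.163), which was 0.019 with array medians subtracted. Its neighbour Cdkn2b, which encodes p15, read 9.81, 9.61 and 9.40 in control and 9.74, 9.70 and 9.83 without active SIRT1, a difference of 0.151 (SE 0.107) with overlapping groups. It was 0.046 without control replicate 3 and 0.254 without control replicate 1. The other CDK inhibitor genes were all below 0, with Cdkn1c at -0.128, Cdkn2c at -0.055, Cdkn1b at -0.048 and Cdkn2d at -0.043. Cdkn1b has another probe set, at -0.115 (SE 0.135). None of the 6 CDK inhibitor genes passed, and their median of -0.046 was 0.003 without control replicate 3, with 3 of 6 below 0. The Cdkn2a probe set does not separate the p16 transcript from the p19 transcript.

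Of 25 developmental transcription factor genes that Polycomb silences in many tissues, 8 lay above 0 and 17 below, with a median of -0.023, against -0.022 for all tested probe sets. The list is dim, with means of 7.03 to 7.13 on the arrays, below the array medians of 7.36 to 7.39. Control means of Hoxa5 (5.04), Olig3 (5.43) and Tbx5 (5.57) lay below the lower quartiles, while Lhx2 was bright (10.53). Small changes of dim probe sets can be missed. None passed, and without control replicate 3 the median was 0.010 with 12 of 25 below 0. The 3 with the smallest p were Hoxb1, a hindbrain patterning gene (-0.193, SE 0.091), Hoxa9, a posterior patterning gene (-0.088, SE 0.055), and Gsc, an organizer gene (0.087, SE 0.056). The groups did not overlap for Hoxa9 and Gsc, 2 of the 25 genes, against 9.33% of all tested probe sets, so this count is close to the background. Hoxa9 read 6.27 to 6.32 in control and 6.18 to 6.23 without active SIRT1, and Gsc 7.57 to 7.59 and 7.62 to 7.70.

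Proliferation genes were read because Ezh2 expression is known to follow cell division. Of 19, 13 lay above 0 and 6 below, with a median of 0.017, and none passed. The balance turned with 1 array: 11 of 19 were below 0 without Sirt1 inactive replicate 2 (median -0.009) and 10 without control replicate 1 (median -0.004). Rrm2, of deoxynucleotide synthesis, differed by 0.143 (SE 0.086), Ccne1, the cyclin of S phase entry, by 0.087 (SE 0.056), and Mcm3, of the replicative helicase, by 0.101 (SE 0.068). Each was higher in 3 of 3 pairs, and the groups did not overlap for Ccne1 and Mcm3, which fixes the pair count for them. These were 2 of the 19 genes, against 9.33% of all tested probe sets, so this count is close to the background.

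**Figure D4:**
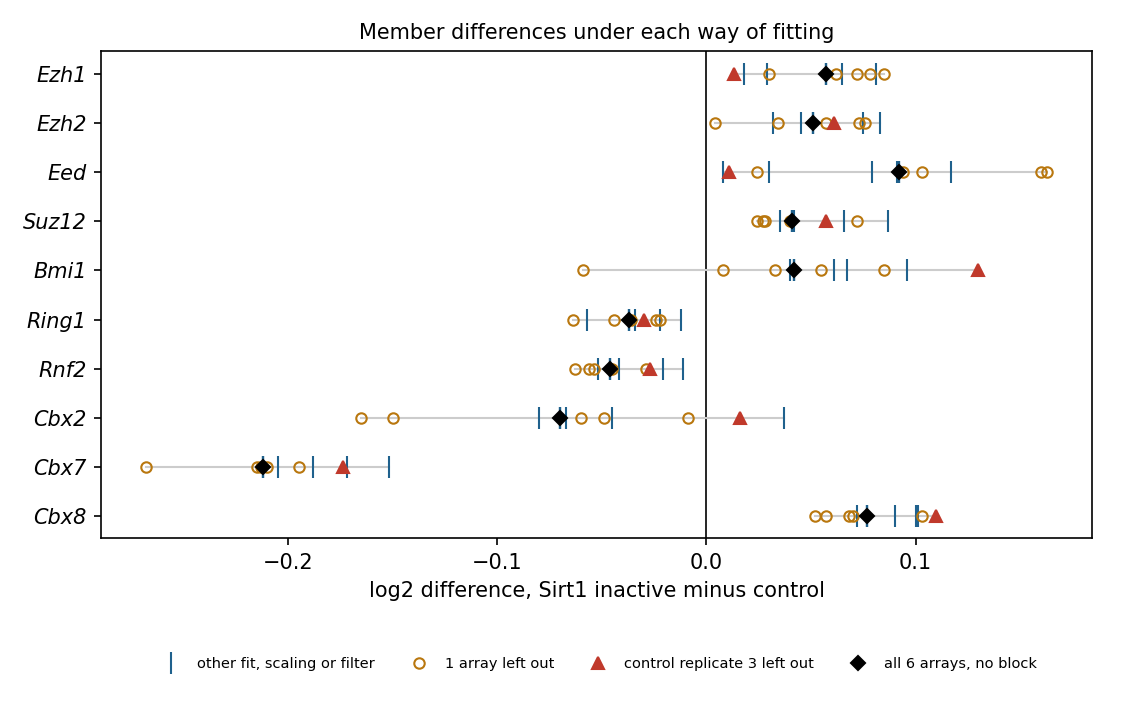
Log2 difference, Sirt1 inactive minus control (x axis), of each Polycomb gene under each way of fitting: all 6 arrays without a block (diamond), control replicate 3 left out (triangle), another array left out (circle), and other fits, scalings or filters (tick). Bmi1 and Cbx2 cross 0, and Cbx7 stays between -0.268 and -0.152.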

How the data were processed

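The values deposited are on a log2 scale and were made by the authors with RMA (background correction, normalization between arrays, probe set summary), per the labels and the submitters' processing notes; the log2 scale was read from the values. No source used here gives the RMA version or the annotation's genome build. RMA forces arrays to like distributions and compresses differences of dim probe sets, so differences can understate changes in RNA.

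Of 34760 probe sets, the platform annotation names 1 gene for 21640, several for 1321 and none for 11799. The 22961 with a gene were fitted with limma 3.58.1 in R 4.3.3 (genotype as the term, empirical Bayes, two-sided, Benjamini-Hochberg adjusted over all 22961, threshold 0.05), checked on simulated data. Gene symbols were checked against RefSeq through Entrez identifiers (21553 matched, 0 changed). The table held 0 columns of other samples.

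Members, lists and tests were chosen with earlier results of these data known. Of 156 entries in 15 lists 147 were measured. All members, all genes of lists with up to 8 measured genes, and the 3 with the smallest unadjusted p of longer lists are named; markers are named where the cells are checked. Samples with equal replicate numbers deviated together (r = 0.47, 0.36 and 0.27 over the tested probe sets), so the numbers were taken to pair the samples, a reading from the data only. No background share was taken for counts of pairs in the same direction. The block changed no call on a member. SEs and intervals given for genes come from the fit without the block. With it, Phc1, Rybp, Usp16 and Rrm2 fell under an unadjusted limma p of 0.05 (0.021, 0.045, 0.026 and 0.044). Without it they were at 0.055, 0.064, 0.067 and 0.14. None passed after adjustment, and 7.58% of tested probe sets were under 0.05 with the block. Alternatives were the block, each array left out, other scalings, filters and variance models. The labels do not say whether replicates are separate animals, so p-values measure the spread between these samples. Arrays have no read depth, and their number limits the precision (median SE 0.080).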

Additional observations from a re-analysis of the deposited data

How the results depend on the processing

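No member passed under any of the 15 alternatives, and the members' median kept its sign in 14. With the replicate number as a block and both arrays of number 3 left out, 19 probe sets of the whole table passed (0 with all 6 arrays), none of them a member. The count of probe sets at an unadjusted p under 0.05 was 830, 1741 with the replicate block, 1972 with the block and number 3 left out, 312 without dim probe sets, where fewer were tested, and 456 to 1453 with 1 array left out. With 1 array left out the members' median was -0.005 to 0.050. Cbx7 was below 0 throughout, and its unadjusted p was above 0.05 (0.052) with the block and number 3 left out, at -0.172. For the values that turned, the cause was not tested. With 1 array left out, values crossed 0 for Bmi1 (-0.059 to 0.130), Cbx2 (-0.165 to 0.016), Jarid2 (-0.154 to 0.023), Mtf2 (-0.043 to 0.194), Phf19 (-0.004 to 0.070), Rbbp4 (-0.041 to 0.034), Rbbp7 (-0.031 to 0.108), Asxl1 (-0.054 to 0.036), Asxl2 (-0.056 to 0.081), Asxl3 (-0.276 to 0.013), Kdm6a (-0.037 to 0.046), Kdm6b (-0.232 to 0.009), Kmt2a (-0.081 to 0.064), Kmt2c (-0.040 to 0.157), Kmt2d (-0.084 to 0.097), Cdkn1b (-0.117 to 0.016), Cdkn2a (-0.038 to 0.057), Cdkn2c (-0.125 to 0.005) and Cdkn2d (-0.126 to 0.066). With array weights, signs turned for Asxl1 (-0.020), Asxl2 (-0.028), Cdkn2a (0.028), Cdkn2c (0.042), Cdkn2d (0.027), Kdm6a (-0.005), Kmt2c (-0.022), Kmt2d (-0.10), Mtf2 (-0.012), Mysm1 (-0.003) and Rbbp7 (-0.004). With the block and number 3 left out they turned for Cbx2 (0.037), Jarid2 (0.023), Cdkn1b (0.014), Cdkn2d (0.013) and Kdm6a (-0.059). Cdkn2a was 0.019 with array medians subtracted and Rbbp4 -0.011 after quantile normalization. None of these genes passed in any fit.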
